A study of Mus musculus with 2 samples.

Results

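Peroxiredoxins and their partner antioxidant enzymes were examined in RNA of the newborn mouse midbrain. The 10 genes were chosen by symbol, Prdx1 to Prdx6, Sod1, Sod2, Gpx4 and Txn1, out of 43346 mouse genes in the tables, and each symbol matched a single row. The 2 libraries came from 1 midbrain each, of pup 1 and pup 3 of strain B6NCrl, taken on postnatal day 0. The labels name no genotype or treatment and give both pups the same donor record. Each library was amplified from 13 pg of total RNA, the content of about 1 cell, so a library is a small sample of a whole tissue and not an isolated cell. Both form 1 group, no condition was compared, and sex was not collected.

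Peroxiredoxins reduce hydrogen peroxide and other peroxides with a reactive cysteine at the active site, called the peroxidatic cysteine. The family is split between compartments: Prdx1, Prdx2 and Prdx6 are mainly cytosolic, Prdx3 is mitochondrial, Prdx4 lies in the endoplasmic reticulum and is secreted, and Prdx5 is found in mitochondria, peroxisomes and cytosol. Prdx1, Prdx2, Prdx3 and Prdx5 are recycled by thioredoxins, of which Txn1 is the cytosolic form. Prdx4 is recycled mainly by protein disulfide isomerases, and Prdx6 relies on glutathione. Superoxide dismutases make the peroxide that these enzymes remove, Sod1 in the cytosol with copper and zinc and Sod2 in the mitochondrial matrix with manganese. Gpx4, a selenoprotein, reduces lipid peroxides within membranes and so holds off ferroptosis. Neurons, with their high oxygen use, depend on all of these systems.

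The stretches that hold the reactive residue are shown because they display what the paralogues share at the active site. How far a read can tell the genes apart was not measured. Each is coding sequence of the principal transcript in GENCODE M21 on GRCm38, 45 bases, 5′ to 3′, with the codon of the reactive cysteine in capitals. For Gpx4 the capitals mark the in-frame TGA that is read as selenocysteine, and for Txn1 both cysteines of the active site.
Prdx1: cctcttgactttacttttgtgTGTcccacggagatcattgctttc
Prdx2: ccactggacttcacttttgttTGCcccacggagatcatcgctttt
Prdx3: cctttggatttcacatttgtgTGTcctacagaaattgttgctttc
Prdx4: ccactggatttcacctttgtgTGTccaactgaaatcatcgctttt
Prdx5: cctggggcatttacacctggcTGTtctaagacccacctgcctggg
Prdx6: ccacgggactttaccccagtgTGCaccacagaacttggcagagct
Gpx4: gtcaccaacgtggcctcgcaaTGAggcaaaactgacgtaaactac
Txn1: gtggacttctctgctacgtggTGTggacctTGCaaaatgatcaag

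The 4 typical 2-Cys enzymes Prdx1 to Prdx4 were close to one another in this window. Prdx2 had 38 of the 45 bases of Prdx1, and Prdx3 and Prdx4 had 35 each. The single reactive cysteine of Prdx6, codon 47, lay in a window with 23 bases of Prdx1, and that of Prdx5, codon 96, in a window with 21. Over whole coding sequences the most alike pair was Prdx1 and Prdx2, with 69.9% of 594 aligned bases identical, followed by Prdx2 and Prdx4 with 69.1%. The Gpx4 codon, at chromosome 10 from 80054737 to 80054739 in exon 3 of 7, was codon 73 of its principal transcript.

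All 10 genes were read in both libraries at a TPM of 1 or more (a level per transcript length, scaled to the same total in each library), against 31.8% of the 21474 protein-coding genes. The genes lay far above this threshold, with mean levels from 62.95 TPM for Sod2 to 1026 TPM for Sod1, a 16.3-fold range. Their expected counts ran from 1193 to 23201 in a library. Together they held 4023 TPM in pup 1 and 4248 TPM in pup 3, or 0.222% and 0.275% of gene counts. The libraries held 26037002 and 32408655 counts over mouse genes, so that 3 counts, the limit a count of 0 allows, equalled 0.115 and 0.0926 CPM, counts scaled to those totals. All 4 neuron markers were read in both libraries, as were 3 of 4 midbrain markers, while Otx2 stood at 40.6 and 0.40 TPM. In whole tissue, fewer cells of a type and less RNA per cell cannot be told apart.

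**Figure D1:**
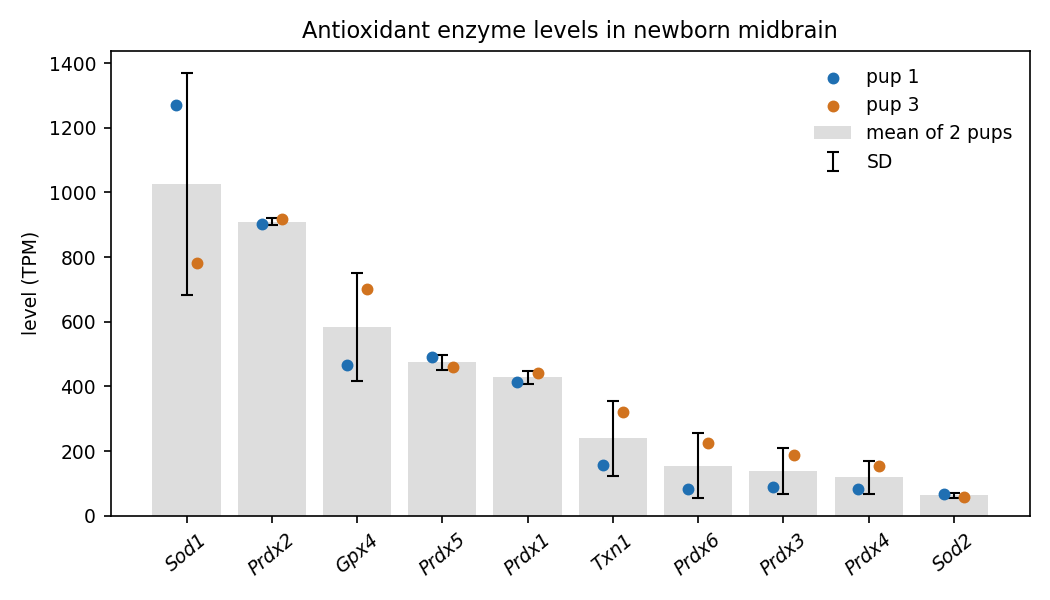
Levels in TPM on a linear axis for the 10 genes, ordered by mean. Grey bars are means of 2 pups, error bars the SD, and points the single libraries. Sod1 and Gpx4 have the widest gaps between points in TPM, with SDs of 344 and 166, while the points of Prdx2, Prdx1 and Prdx5 lie close together.

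Prdx2, the cytosolic peroxiredoxin that is abundant in neurons and red blood cells (ENSMUSG00000005161.11, chromosome 8, 84969587 to 84974834), was the highest of the family. It stood at 902 TPM in pup 1 and 917 TPM in pup 3, a mean of 909 ± 10.9 (SD, n = 2). Its rank among all mouse genes was 123 in pup 1 and 127 in pup 3. Prdx1, its cytosolic paralogue (ENSMUSG00000028691.8, chromosome 4, 116685544 to 116700822), stood at 413 and 442 TPM, a mean of 428 ± 20.3. Prdx2 thus exceeded Prdx1 by 2.18-fold in pup 1 and 2.07-fold in pup 3 on the TPM scale. The third cytosolic member, Prdx6 (ENSMUSG00000026701.11, chromosome 1, 161240112 to 161251219), also has phospholipase activity. It was read at 83.9 TPM in pup 1 and 225 TPM in pup 3, a mean of 155 ± 99.9. Of the 10 genes it had the widest spread for its level, an SD of 64.7% of the mean, and Prdx2 the narrowest, 1.20%.

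Prdx3, the mitochondrial member (ENSMUSG00000024997.7, chromosome 19, 60864051 to 60874556), was at 88.6 TPM in pup 1 and 188 TPM in pup 3, a mean of 138 ± 70.4. Prdx4, the member of the secretory pathway (ENSMUSG00000025289.11, chromosome X, 155323918 to 155340754), was at 82.2 and 154 TPM, a mean of 118 ± 50.8. Both were low beside the cytosolic pair in either pup. Prdx5, the atypical 2-Cys member (ENSMUSG00000024953.12, chromosome 19, 6906697 to 6910106), was at 492 and 458 TPM, a mean of 475 ± 23.4. It had the second highest peroxiredoxin TPM in both libraries, although its interval overlapped that of Prdx1 in pup 3. In expected counts, which are not per length, Prdx1 lay above Prdx5 in both.

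Within a library, paralogues were compared by the log2 ratio of TPM + 1, and a pair was called ordered if it had the same sign in each pup with deposited TPM intervals that stayed apart. Of the 15 peroxiredoxin pairs 11 had such an order. Prdx2 lay above the other 5 members in both pups, by a mean log2 ratio of 0.94 ± 0.09 over Prdx5, 2.72 ± 0.98 over Prdx6, 2.81 ± 0.75 over Prdx3 and 3.00 ± 0.62 over Prdx4. Prdx1 and Prdx5 each lay above Prdx3, Prdx4 and Prdx6. The 4 pairs without an order were Prdx1 with Prdx5, Prdx3 with Prdx4, Prdx3 with Prdx6 and Prdx4 with Prdx6. Prdx3 exceeded Prdx6 by a log2 ratio of 0.08 in pup 1 and lay below it in pup 3 with -0.26, the only family pair with opposite signs. The family thus had 3 abundant members, Prdx2, Prdx5 and Prdx1, and 3 lower ones without an order that held in both pups. The intervals of these 3 overlapped in pup 1. In pup 3 they stayed apart, with Prdx6 above Prdx3 and Prdx3 above Prdx4. The deposited intervals are centred on posterior mean estimates, and 14 of the 20 TPM values lay inside them.

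By compartment, the cytosolic genes Prdx1, Prdx2 and Prdx6 made up 67.9% of peroxiredoxin TPM in pup 1 and 66.4% in pup 3, a mean of 67.1% ± 1.02. Prdx5 held 23.8% and 19.2%. Mitochondrial Prdx3 held 4.30% and 7.89%, and Prdx4 of the endoplasmic reticulum 3.99% and 6.46%. The cytosolic share moved little, but its makeup did: Prdx2 went from 43.7% in pup 1 to 38.5% in pup 3, and Prdx6 from 4.07% to 9.44%. The Prdx6 share is that of the whole gene, of whose TPM the principal coding transcript ENSMUST00000071718.7 held 8.53% and 6.64%. In expected counts, which are not per length, the cytosolic share was 71.2%.

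**Figure D2:**
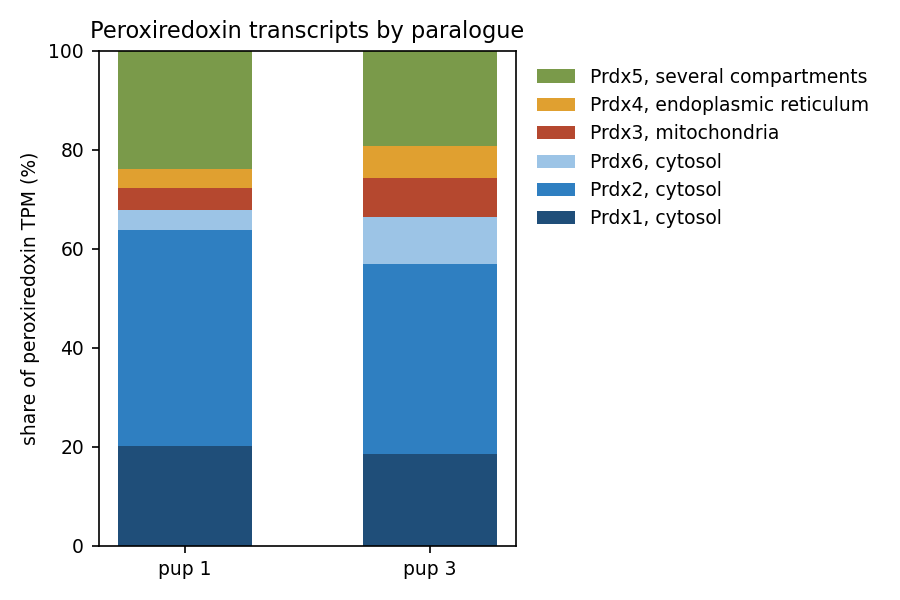
Share of the summed peroxiredoxin TPM held by each paralogue, in percent, as stacked bars for pup 1 and pup 3. The 3 blue parts are the cytosolic genes, 67.9% and 66.4% together, and Prdx2 is the largest part in both bars.

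Superoxide dismutases showed a wider compartment difference in TPM. Cytosolic Sod1 (ENSMUSG00000022982.9, chromosome 16, 90220754 to 90226329) was at 1269 TPM in pup 1 and 782 TPM in pup 3, a mean of 1026 ± 344. It had the highest level of the 10 in pup 1, while Prdx2 had it in pup 3. Mitochondrial Sod2 (ENSMUSG00000006818.4, chromosome 17, 13006846 to 13040063) was at 68.4 and 57.5 TPM, a mean of 62.95 ± 7.67, the lowest of the 10 in both pups. Sod1 exceeded Sod2 by 18.6-fold in pup 1 and 13.6-fold in pup 3, a mean log2 ratio of 3.97 ± 0.32. It made up 94.9% and 93.1% of the TPM of this pair. In expected counts, which are not per length, the gap was narrower, with 11315.5 and 9746 for Sod1 and 4151 and 4881 for Sod2. Their effective lengths were 547 and 3725 bases.

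Gpx4 (ENSMUSG00000075706.6, chromosome 10, 80047166 to 80056439) was at 466 TPM in pup 1 and 701 TPM in pup 3, a mean of 584 ± 166. Txn1, the electron donor of the cytosolic enzymes Prdx1 and Prdx2 (ENSMUSG00000028367.5, chromosome 4, 57943373 to 57956411), was at 158 and 322 TPM, a mean of 240 ± 116. Txn1 stood below Prdx1 and Prdx2 and above Prdx3 and Prdx4 in both pups. Among all 45 pairs of the 10 genes 39 had an order. Besides the 4 pairs above, Sod1 with Prdx2 and Gpx4 with Prdx5 had none. In the order of mean levels, Sod1 and Prdx2, Gpx4 and Prdx5, Prdx5 and Prdx1, Prdx6 and Prdx3, and Prdx3 and Prdx4 are therefore neighbours that were not ordered.

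The libraries were then set side by side to see how far the genes' counts agreed between pups. Counts were divided by the gene total of their library, and a call required that the 95% interval of the ratio, exact by Clopper-Pearson, lie beyond 4-fold throughout. None of the 10 genes was called, against 41.0% of 14574 genes with a count in either library, 17.9% higher in pup 3 and 23.2% higher in pup 1. At a mean of 50 TPM or more, the level range of the 10 genes, 9.97% of 3219 genes were called, 5.25% higher in pup 3 and 4.72% higher in pup 1. The count of members was also 0 under TMM scaling, DESeq2 size factors and spike-in totals. No p-value was computed, since 1 library per pup allows no replicated test. The rule compares 2 libraries, not conditions, and its intervals cover only the counting error of reads taken as independent. Amplified reads are not independent molecules, so the intervals do not cover the sampling of molecules.

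Prdx6 differed most, with 1270 counts in pup 1 and 5586 in pup 3, 3.53-fold higher in pup 3 (interval 3.32 to 3.76). Of these counts, 385 and 3967 were on ENSMUST00000192639.1, annotated as a target of nonsense-mediated decay. The principal coding transcript ENSMUST00000071718.7 had 267 and 779. In TPM the difference of the Prdx6 gene level was 2.68-fold. The effective length given for Prdx6 was 929 bases in pup 1 and 1089 in pup 3, and the TPM scaling also lowered the ratio of Prdx3, whose length of 1379 bases did not change, to 2.12-fold. Prdx3 was 2.38-fold higher in pup 3 (2.27 to 2.51), Txn1 2.29-fold (2.19 to 2.40) and Prdx4 2.12-fold (1.98 to 2.27). Beyond 2-fold lay Prdx6, Prdx3 and Txn1, 3 of the 10 genes, all higher in pup 3. Among genes with a count 55.3% lay beyond 2-fold, 26.1% higher in pup 3 and 29.3% higher in pup 1. At a mean of 50 TPM or more these shares were 33.1%, 20.1% and 13.0%, so the 3 of 10 were near the background. With TMM scaling or DESeq2 size factors, Prdx6 alone kept its whole interval beyond 2-fold. The log2 ratio was then 1.06 and 1.05 for Prdx3, with lower bounds of 1.99-fold and 1.97-fold, and 1.00 under both for Txn1, with lower bounds of 1.92-fold and 1.90-fold. All 3 genes stayed beyond 2-fold with spike-in totals.

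Gpx4 was 1.64-fold higher in pup 3 (1.59 to 1.69) and Sod1 1.45-fold higher in pup 1 (1.41 to 1.49). Prdx1, Prdx2, Prdx5 and Sod2 differed by less than 1.2-fold in counts, with ratios of pup 3 over pup 1 of 1.17, 1.12, 1.04 and 0.945. By gene totals 8 genes had the higher value in pup 3, against 6 with TMM or size factors, 7 with spike-in totals and 7 in TPM. Prdx5 changed side under each of these and Prdx2 under TMM and size factors. These scalings moved the median log2 ratio of all genes by -0.19, -0.20 and -0.11. The median log2 ratio of pup 3 over pup 1 was 0.47 for the 10 genes and 0.21 for the 7389 genes at TPM 1 or more in both libraries. Without regard to direction, the 10 genes differed by a median of 1.54-fold, and the 3153 of those genes at a mean of 50 TPM or more by 1.64-fold.

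**Figure D3:**
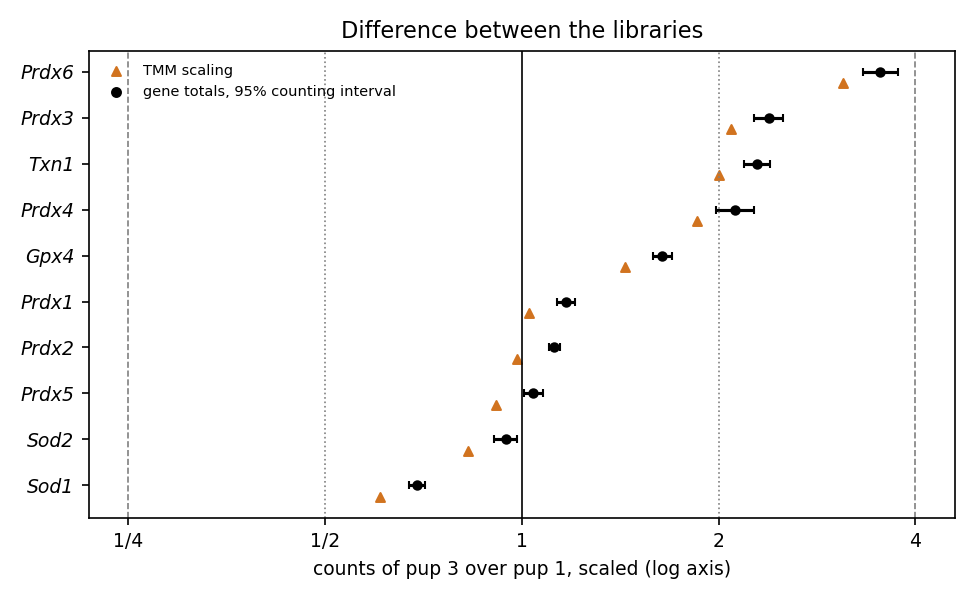
Scaled count ratio of pup 3 over pup 1 on a log axis for the 10 genes, with the 95% counting interval (black, scaling by gene totals) and the value under TMM scaling (orange triangles). Dotted lines mark 2-fold and dashed lines 4-fold, and no gene reaches 4-fold.

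Markers of other cell types also differed between the libraries. Of 5 erythroid genes 4 were read in both pups, with a summed level of 1703 TPM in pup 1 and 2891 TPM in pup 3, and Alas2 at 0 and 30.7 TPM. The 4 globin genes were 1.68-fold to 2.58-fold higher in pup 3 by counts, and Prdx2, an abundant protein of red cells, 1.12-fold. The 5 radial glia and astrocyte genes summed to 2106 and 2481 TPM, with Fabp7 1.66-fold higher in pup 3, Slc1a3 2.36-fold and Aqp4 2.36-fold higher in pup 1, and Gfap at 0 in both. Neuron markers summed to 10564 and 7311 TPM, but only Tubb3 (5927 and 1794 TPM) was lower in pup 3. Snap25 (366 and 552), Stmn2 (2056 and 2565) and Gap43 (2215 and 2400) were higher there. Midbrain markers summed to 325 and 173 TPM. Of 5 microglia genes 2 were read in both, with sums of 58.4 and 76.5 TPM and Tmem119 at 0. Of 4 endothelial genes 1 was, with sums of 148 and 133 TPM, nearly all from Cldn5 (147 and 115). Kdr was at 0.48 and 17.8 TPM, over 4-fold higher in pup 3, and Pecam1 had 0 and 1 counts. Their part in the differences of the 10 genes was not tested.

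Transcript choice was read from the deposited percent of a gene's TPM on each annotated transcript. Of the 10 genes, Prdx3, Sod1, Sod2 and Txn1 had 1 transcript each in the tables. Of the other 6, the leading transcript was the same in both pups for Prdx1, Prdx2, Prdx4 and Prdx5, and differed for Prdx6 and Gpx4. By expected counts, 5 of the 6 had the same leader, since ENSMUST00000105372.3 then led Gpx4 in both.

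Gpx4 is made in mitochondrial, cytosolic and nuclear forms from different starts. The transcript ENSMUST00000105372.3, whose 591 coding bases start at 80053632 in the first exon, held 50.3% of Gpx4 TPM in pup 1 and 42.3% in pup 3. The transcript ENSMUST00000183037.1, with 471 coding bases from a start at 80054550, held 49.5% and 57.0%. In it the selenocysteine codon is number 33 rather than 73. ENSMUST00000097227.5, the nuclear-start transcript with 759 coding bases from a separate start at 80054049, held 0.07% and 0%, with 4.80 and 0 counts. The leading pair was close: it held 3290 and 2391 counts in pup 1, and 5811 and 5792 in pup 3 with posterior SDs of 129 and 130. Gpx4 TPM was thus divided between 2 annotated coding starts, and the third was near 0 in both pups. These shares are of annotated transcripts and do not give the split between the mitochondrial and cytosolic forms.

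Prdx5 was spread over 3 coding transcripts in both pups. ENSMUST00000149261.3, whose coding part starts at 6908284, held 41.5% in pup 1 and 37.2% in pup 3. The principal transcript ENSMUST00000025904.7, with 630 coding bases from 6909617, held 32.7% and 33.5%. ENSMUST00000173091.1 has the same start and 498 coding bases and held 25.4% and 28.9%. By counts the principal transcript led, with 49.97% and 51.5%. The leader by TPM thus lacked the coding start of the principal transcript in both pups.

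Prdx6 was the gene whose leading transcript differed between pups both by TPM and by counts. Its principal coding transcript ENSMUST00000071718.7, with 672 coding bases, held only 8.53% of Prdx6 TPM in pup 1 and 6.64% in pup 3, or 267 of 1270 and 779 of 5586 counts. ENSMUST00000192639.1, annotated as a target of nonsense-mediated decay with 228 coding bases, held 23.6% in pup 1 and 64.7% in pup 3. It had 385 counts in pup 1 and 3967 in pup 3, with posterior SDs of 28.1 and 52.8, or 30.3% and 71.0% of Prdx6 counts. ENSMUST00000156678.3, annotated without a coding sequence, held 35.5% and 6.25%, and ENSMUST00000139387.3, also without one, 32.5% and 22.4%. As assigned in the deposited tables, the gene level of Prdx6 was mostly that of transcripts without the full coding sequence.

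Prdx1 and Prdx2 kept their leading transcript. Prdx2 was led by ENSMUST00000164807.1 with 53.9% in pup 1 and 63.8% in pup 3, and 4 transcripts with the same 594 coding bases held 88.3% and 90.7% together. A Prdx2 transcript with a retained intron, ENSMUST00000127215.1, held 11.2% and 9.25%. Prdx1 was led by ENSMUST00000030454.5 with 51.2% and 52.4%, a transcript whose 3′ end is incomplete in the annotation. By counts ENSMUST00000135573.3, with the full 597 coding bases, led with 56.9% and 54.7%. Prdx4 had a single transcript in pup 1, and in pup 3 ENSMUST00000123915.1, without a coding sequence, took 16.5%.

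**Figure D4:**
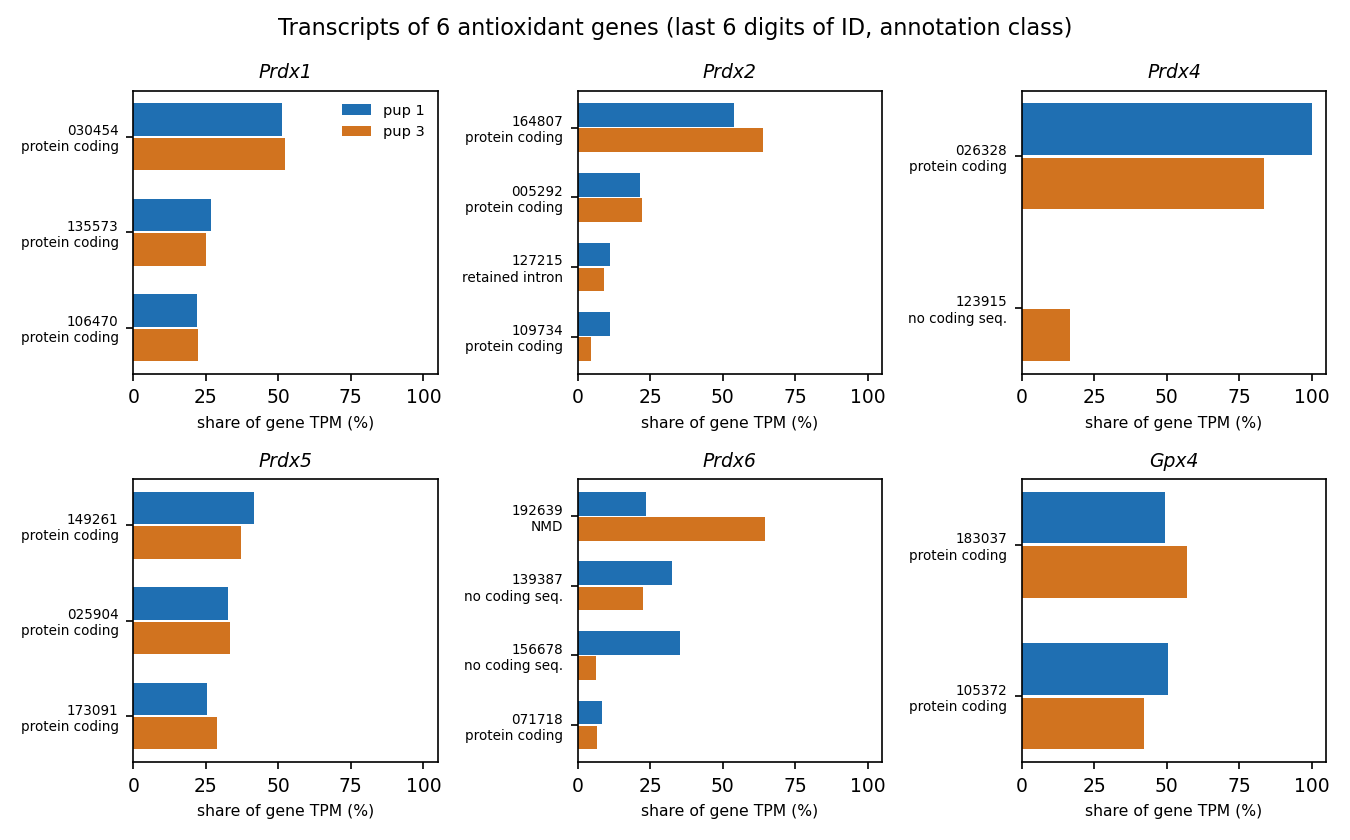
Share of each gene's TPM in percent for the main transcripts of 6 genes in pup 1 (blue) and pup 3 (orange), labelled by the last digits of the transcript ID and its annotation class (NMD, nonsense-mediated decay). Bars of the pups are alike for Prdx1 and Prdx5, whereas ENSMUST00000192639.1 of Prdx6 goes from 23.6% to 64.7%.

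Copies similar in sequence could draw reads from these genes. A nucleotide search of annotated transcripts was made at 80% identity over 200 bases or more. It found 16 other genes matching members other than Sod2, with identities from 82.0%. Of these, 11 had a row in the tables and 5 of those were at 0 in both libraries. Matches over 200 or more coding bases numbered 15, of which 10 had a row. The remaining match was Trmt112, which overlaps Prdx5 outside its coding bases. Processed pseudogenes read at 10 or more mean counts were Gm7204 for Prdx1 (97.5% identical, 16.2 and 11.1 counts), Tdpx-ps1 for Prdx2 (96.3%, 19.8 and 140 counts) and Gm8566 for Sod1 (97.8%, 71.5 and 54.8 counts). The Prdx6 paralogue Prdx6b, 89.7% identical, had 0 counts in both. The deposited posterior SD was at most 8.95 counts for any of the 10 genes, or 0.147% of its count, and 0 in both libraries for 5 of them. The processed pseudogenes with a row thus held few reads beside their parents. The posterior SD covers division of reads among genes with a row only. It cannot speak to the 2 copies of Gpx4, neither of which had a row. Prdx5 shares 360 exonic bases with Trmt112 on the opposite strand (1565 and 984 counts), and Prdx2 shares 154 with Rnaseh2a (481 and 96.05 counts). Strand use in counting is not given in the sources used here, so reads in these stretches cannot be assigned with certainty.

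The wider antioxidant system was described with 6 lists holding 54 genes. At a TPM of 1 or more, both pups had reads of 28, pup 1 alone of 8, pup 3 alone of 11, and 7 were below it in each. Of the 49 list genes with a count in either library 57.1% were read in both, against 50.7% of all such genes. Over 4-fold differences counted 12 genes higher in pup 3 and 10 higher in pup 1. These were 24.5% and 20.4% of the 49 list genes with a count, against 17.9% and 23.2% of all genes with a count.

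Of 15 thioredoxin partners 9 were read in both pups. Glrx3, a glutaredoxin of iron-sulfur handling, was at 243 and 206 TPM, and mitochondrial thioredoxin Txn2 at 76.3 and 240 TPM, 3.53-fold higher in pup 3 by counts. Txnip, which binds and inhibits thioredoxin, was at 183 and 92.9 TPM, Txnl1 at 70.7 and 112 TPM and Glrx at 108 and 14.6 TPM. Srxn1, the sulfiredoxin that repairs over-oxidised peroxiredoxins, stood at 31.4 ± 2.60 TPM, and Txnrd1, the cytosolic reductase of Txn1, at 25.2 ± 4.80 TPM. Txnrd3 and Nxn had 0 counts in both. The cytosolic chain of Txn1 and Txnrd1 was thus read in both pups. The mitochondrial reductase Txnrd2 stood at 2.27 and 0 TPM, but neither value lay inside its deposited interval. These intervals were 2.68 to 5.17 TPM in pup 1 and 0.472 to 2.05 TPM in pup 3. The latter spans the threshold of 1 TPM, so whether Txnrd2 was read in pup 3 is uncertain. Srxn1, Txnrd1 and Txnrd2 lie outside the naming rule and were chosen after their values were seen.

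Of 11 other peroxide and superoxide enzymes 4 were read in both pups. Gpx1, the cytosolic glutathione peroxidase, was at 290 and 376 TPM, Gpx3, a secreted form, at 103 and 170 TPM, and catalase (Cat), the peroxisomal enzyme, at 179 and 91.0 TPM. Ccs, the copper chaperone of Sod1, was at 42.1 and 33.5 TPM. Gpx6 was listed at 0 and 38.1 TPM. Gpx5 and Prdx6b had 0 counts in both, and Gpx2 had 0 and 1.08 counts. Gpx4 thus had the highest mean TPM of the 8 glutathione peroxidase genes measured.

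Of 12 glutathione genes 7 were read in both. The transferases Gstp1 (541 ± 145 TPM), Gstm1 (390 ± 19.8) and Gstm5 (378 ± 41.2) and the microsomal Mgst3 (217 ± 4.55) led the list, followed by Mgst1 at 151 and 109 TPM. Gclc, a subunit of the rate-limiting enzyme of glutathione synthesis, had 1 and 0 counts. All 3 metallothioneins were read in both, Mt1 at 304 ± 19.0 TPM, Mt3 at 279 ± 23.5 and Mt2 at 39.3 and 116 TPM.

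Of 7 genes of the NRF2 pathway, which controls many antioxidant genes, 2 were read in both pups. Keap1, the repressor of NRF2, was at 88.9 and 36.8 TPM and Mafg, a partner, at 47.0 and 17.4 TPM. The target genes on this list were read in 1 pup each, Hmox1 at 36.9 and 0 TPM and Nqo1 at 0 and 32.0 TPM. Targets among the other lists were not counted here. The repressor Bach1 was at 0.63 and 29.9 TPM, and Nfe2l2, which encodes NRF2, at 14.4 and 0 TPM. Of 6 genes of selenium supply and selenoprotein synthesis, which Gpx4 needs, 3 were read in both. Selenop, the selenium carrier, was at 445 and 273 TPM, Pstk at 26.4 and 55.1 TPM and Secisbp2, which binds the selenoprotein element, at 1.32 and 45.9 TPM. Eefsec and Sephs2 were at 0 in pup 1 and at 25.4 and 23.8 TPM in pup 3, and Sepsecs had 0 counts in both.

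**Figure D5:**
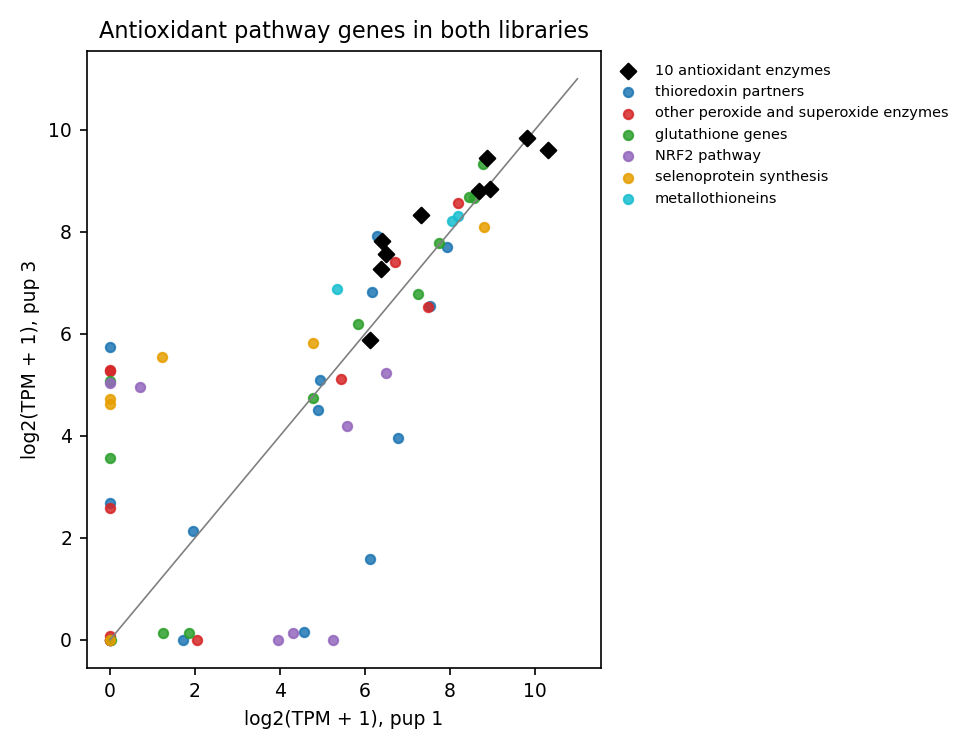
log2(TPM + 1) in pup 1 (x axis) against pup 3 (y axis) for the 10 enzymes (black diamonds) and 54 pathway genes coloured by list, with the line of equal values. The diamonds lie at high levels within 4-fold of the line, with Prdx6 farthest from it (83.9 and 225 TPM). Genes along either axis were read in 1 library only.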

How the data were processed

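Both tables rest on mm10 and GENCODE M4, per the file headers. The sources used here do not name the aligner, quantification program or strand setting. The deposited expected counts divide reads among matching genes and were rounded for intervals. The deposited TPM is per effective length over all rows of a table, 26248 tRNA and 97 spike-in rows included. The bounds of the TPM interval, a deposited signal column, and the deposited percent of TPM per transcript were used as given. The deposited FPKM was not used. Symbols and coordinates were taken from GENCODE M21 (GRCm38, which is mm10).

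The named genes were all members, per list up to 5 by mean TPM and those under TPM 1 in both libraries, copies at 10 mean counts, and transcripts at 10% or leading. The principal Prdx6 transcript, the nuclear-start Gpx4 transcript, Gpx4-ps2, Rps6ka2, AC166110.4 and Nfe2l2 were named after their values were seen. Members and lists were chosen with earlier results of these data known. Alternatives were posterior means, thresholds, scalings and single libraries. The count rule was also run on simulated counts that varied by counting error only, which is what its intervals assume. Amplified reads are not independent molecules, so that run cannot show how the rule performs on these libraries. Tools were Python 3.11.15, scipy 1.17.1, biopython 1.88, blastn 2.17.0, and edgeR 4.0.16 and DESeq2 1.42.0 for scaling factors only.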

Additional observations from a re-analysis of the deposited data

How the results depend on the processing

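No paired analysis was possible because both libraries form a single group. All 10 genes were read in both libraries at each threshold tried. The cytosolic share was 71.2% in expected counts. The summed level of the 10 genes was 4587 TPM without spike-in, tRNA and mitochondrial rows and 4872 TPM over protein-coding genes, against 4136. With a limit of 2-fold in place of 4-fold, 3 genes were called, and 1 with TMM scaling and 1 with DESeq2 size factors. The scalings of the 2-fold count and of the genes higher in pup 3, and all alternatives of the count over all genes, were chosen after seeing the data. Peroxiredoxin pairs with an order numbered 11 to 14 over all alternatives, a number of pairs that does not show their direction. In expected counts, Prdx1 lay above Prdx5 in both pups, with 6967 and 10141 against 6096 and 7898. Prdx3 likewise lay above Prdx6 in both, with 1992 and 5913 against 1270 and 5586. The pathway genes read in both numbered 25 to 32 over the other thresholds and estimates, against 28, and pup 3 and pup 1 alone had 39 and 36. All genes called numbered 5954 to 8064, the last with a 2-fold limit, against 5982, and the median log2 ratio of the 10 genes was 0.27 to 0.36, against 0.47. With 2 libraries, leaving out either one moves every mean by the same number of SDs and says nothing about stability. The lowest of the 10 genes had 1193 counts, and how far the small RNA input limits a level was not tested.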

Other observations

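Sod2 has a long 3′ end, and the nucleotide search matched it to 162 other genes, none of them over 200 or more coding bases of Sod2. Of these matches 160 were shorter than 400 bases. The longest match was a transcript of Rps6ka2 (chromosome 17, 7170115 to 7303315), 98.2% identical over 3110 bases, which had 1114 counts in pup 1 and 0 in pup 3. A second long match, the long noncoding RNA AC166110.4 on chromosome 17, was 98.5% identical over 3108 bases and had no row. The deposited posterior SD of the Sod2 count was 0 in both libraries, which cannot reflect reads of a gene without a row. The restriction to coding bases was added after the values were seen.

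Gpx4-ps2, annotated as a transcribed processed pseudogene on chromosome 10 (45875291 to 45876086), was 99.7% identical to Gpx4 over 762 bases and had no row in the tables used here. The tables thus could not divide reads between it and Gpx4.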
